A study of Mus musculus with 48 samples.

Results

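Messenger RNA was compared between 6 libraries of mouse adipose tissue macrophages labelled as coming from adipose-specific Txnip knockout animals and 6 labelled wild type, all from animals fed a control diet. These 12 of the 48 libraries of the series were chosen by their labels for tissue, genotype and diet, and no measured value entered the choice. Epididymal white adipose tissue, the fat pad beside the testis, is written eWAT below. The cells were labelled as macrophages carrying F4/80, CD11b and CD64, the proteins of Adgre1, Itgam and Fcgr1. The promoter that drives the deletion, and the age of the animals, are not given in the labels. Nothing in the labels tells whether the libraries came from separate animals, or whether macrophage and eWAT libraries share animals. The p-values therefore measure the spread between these libraries, part of which may be technical. Set beside this comparison were 7 KO-labelled and 7 WT-labelled whole eWAT libraries on the control diet, and 3 KO-labelled and 3 WT-labelled macrophage libraries on a ketogenic diet. Both eWAT groups and both ketogenic groups carry the same 2 genotype labels, adipose-specific Txnip knockout and wild type.

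Txnip encodes an arrestin-like protein that binds thioredoxin, restrains glucose uptake into cells and is itself induced by glucose. In adipose tissue, adipocytes store triacylglycerol in lipid droplets, release fatty acids when adrenergic receptors are stimulated and secrete hormones, while resident macrophages take up lipid and dead cells and make cytokines when activated. A deletion confined to adipocytes would leave the gene intact in macrophages. Beyond the words adipose-specific, the labels do not tell which cells carry the deletion. The comparison is therefore between genotype labels, and an effect of neighbouring adipocytes on macrophage transcripts was not tested. Macrophage preparations from fat can also carry RNA released by adipocytes.

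The libraries held 36.9 to 47.3 M gene counts with the WT label and 42.4 to 47.0 M with the KO label. M stands for 1000000 reads. Levels are given as CPM (counts per M gene counts, scaled by TMM) and changes as log2 fold changes, KO label minus WT label, with the SE of the fit. WT-labelled replicates 2 and 3 had the largest shares of unmapped reads, 17.1% and 14.6%, against 9.73% to 12.2% in the other 10 libraries, and replicate 2 stood apart on the first principal component, which carried 35% of the variance. That component also set replicates 1 to 3 below replicates 4 to 6 within each label. The scores were -71.21 to -15.58 against 13.06 to 32.17 with the WT label, and -17.72 to 2.79 against 15.6 to 23.07 with the KO label. In bulk RNA of this kind, fewer cells of a type and less RNA per cell cannot be told apart.

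The macrophage label was not borne out by the sort markers. Their summed level was lowest at 14.7, median 31.0 and highest at 89.4 CPM in the WT-labelled libraries, and 36.1, 42.4 and 56.8 CPM in the KO-labelled ones. In whole eWAT, where macrophages are a minority, the same sum ran from 83.1 to 128 CPM with the WT label and from 97.3 to 191 CPM with the KO label. Macrophage and eWAT libraries were made with different kits and amounts of RNA, so tissue and kit cannot be told apart in these levels. Apart from WT-labelled replicate 4, at the highest value, every macrophage-labelled library lay below every whole eWAT library. The 16 pan-macrophage genes, which include the sort markers, also had a lower median, 944 (WT label) and 1101 CPM (KO label) against 1602 and 1777 CPM in whole eWAT. Genes of endothelial cells, which line blood vessels, summed instead to 9751 to 11191 CPM over the 12 libraries against 1474 to 1970 CPM in whole eWAT, with Pecam1 at a median of 1779 CPM in the WT-labelled libraries and 236 CPM in WT-labelled eWAT. Fibroblast and progenitor genes ran from 9621 to 24944 CPM, with a WT-labelled median of 15730 CPM against 15596 CPM in eWAT. Monocyte genes had a WT-labelled median of 2270 CPM against 1329 CPM in eWAT, and dendritic cell genes 242 against 77.9 CPM. Immediate early genes, which switch on within minutes of stimulation and during tissue dissociation, summed to 45676 to 56401 CPM against 302 to 565 CPM in whole eWAT. Egr1 was the most abundant of all transcripts in the WT-labelled libraries, at a mean of 12122 ± 1100 CPM (SD, n = 6). The libraries are therefore called macrophage-labelled here, and no statement below is about purified macrophages.

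**Figure D1:**
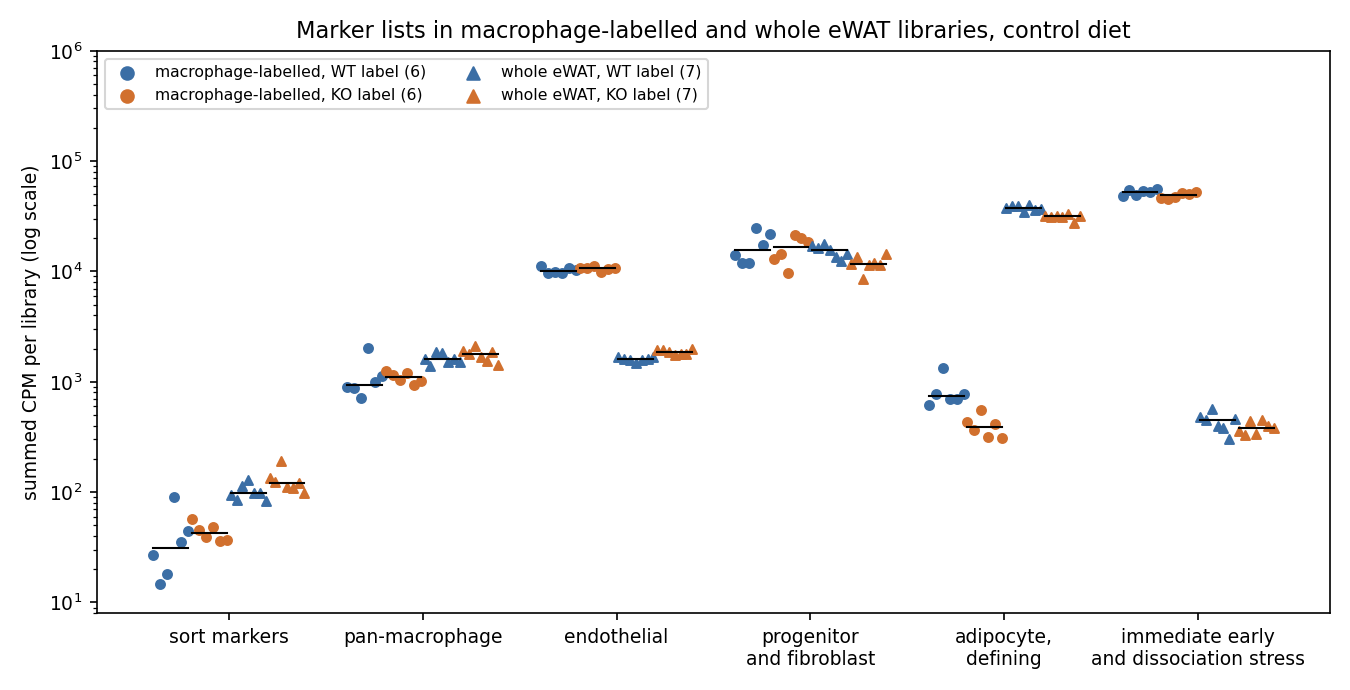
Summed CPM of 6 marker lists in each macrophage-labelled (circles) and whole eWAT (triangles) library on the control diet, on a log axis, with black lines at the medians. Sort markers lie mostly below whole eWAT, endothelial and immediate early genes lie far above it, and the defining adipocyte genes of the macrophage-labelled libraries are far below whole eWAT and lower with the KO label.

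Txnip itself did not separate the labels. Its level was 1298 at the lowest, 1546 at the median and 1858 CPM at the highest in the WT-labelled libraries, and 1308, 1606 and 2115 CPM in the KO-labelled ones. The groups overlapped almost entirely. The change was 0.08 ± 0.11 with a 95% interval of -0.17 to 0.32 (edgeR adjusted p = 0.774), and its sign turned without KO-labelled replicate 3 (-0.017). In whole eWAT, Txnip was higher with the KO label (0.69 ± 0.09, adjusted p = 0.000852), which goes against the label. Its difference between the tissues passed the interaction test (-0.68 ± 0.15, macrophage-labelled minus eWAT, adjusted p = 0.048). Counts over a whole gene do not show the loss of part of it, so Txnip settles the genotype of no library here, and every direction below is between libraries labelled KO and libraries labelled WT. Arrdc4, a related arrestin gene also induced by glucose, lay at 83.6 to 114 CPM with the WT label and 124 to 149 CPM with the KO label. Its groups did not overlap, yet it missed the threshold (0.39 ± 0.08, adjusted p = 0.141). None of the 17 genes of the list of arrestins, thioredoxins, their reductases and peroxiredoxins passed the edgeR test, and 4 had an unadjusted p under 0.05. DESeq2 and limma-voom each called 1 of the 17.

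Of 17067 genes tested, 14 passed the threshold of an adjusted p under 0.05, which is 0.082%. Of these, 5 were higher (0.0293%) and 9 lower (0.0527%) with the KO label, and the groups of 6 did not overlap for any of the 14. Without a correction for the number of tests, 1701 genes (9.97%) had a p under 0.05. Over all genes tested, 251 (1.47%) had groups that did not overlap. Of these, 152 (0.891%) had every KO-labelled library above every WT-labelled one and 99 (0.58%) had every one below. The number called depended on the tool and on single libraries: DESeq2 called 31 higher and 84 lower, limma-voom 9 and 24, and a fit with an offset for GC content 3 and 2. With that offset 4 of the 14 were still called, Cidec, Zfp949, Morf4l1-ps1 and Gm11868. Leaving out 1 library at a time gave 3 to 7 higher and 1 to 11 lower.

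Of the 9 genes that were lower with the KO label, 2 are on the adipocyte list (Cidec and Cfd), Dgat2 is on the lipogenic list and Ifi27l2a on the interferon-induced list. Cidec, which fuses lipid droplets, had the smallest p among them. Its level was lowest at 52.6, median 56.1 and highest at 80.7 CPM with the WT label, and 27.7, 32.8 and 35.0 CPM with the KO label. Every KO-labelled library lay below every WT-labelled one. The change was -0.93 ± 0.11 with an interval of -1.15 to -0.70 (adjusted p = 0.00268), and it was called in each of the 12 fits with a library left out and in all 11 other settings, with adjusted p from 3.05e-12 to 0.0227.

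Dgat2 and Pcx are enzymes of metabolism. Dgat2 joins the last fatty acid to diacylglycerol and fell from 50.1, 62.4 and 93.3 CPM (lowest, median and highest with the WT label) to 29.7, 38.8 and 41.3 CPM (-0.82 ± 0.14, adjusted p = 0.0478). Pcx encodes pyruvate carboxylase, which supplies oxaloacetate, and fell from 22.3, 29.1 and 33.8 CPM to 15.7, 18 and 18.5 CPM (-0.67 ± 0.11, adjusted p = 0.0477). Neither gene's groups overlapped. Dgat2 was the 1 called member of 18 lipogenic genes, whose median change was -0.01 against -0.02 over all genes tested. Fasn, the fatty acid synthase, was at 64.5, 78.7 and 89.9 CPM with the WT label and 72.5, 81.2 and 92.1 CPM with the KO label, overlapping groups that differed by 0.07 ± 0.09 (adjusted p = 0.745).

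Adrb3, Adora1 and Slc7a10 encode proteins of the cell surface. Adrb3, the adrenergic receptor through which noradrenaline drives lipolysis, went from 6.59, 6.96 and 10.5 CPM with the WT label to 2.87, 3.22 and 5.54 CPM with the KO label (-1.10 ± 0.18, adjusted p = 0.0477). Adora1, the adenosine receptor that restrains lipolysis, went from 0.794, 0.974 and 1.58 CPM to 0.376, 0.448 and 0.545 CPM (-1.23 ± 0.20, adjusted p = 0.0477). Slc7a10, a transporter of small neutral amino acids on adipocytes, went from 2.03, 2.51 and 3.10 CPM to 0.76, 1.11 and 1.42 CPM (-1.23 ± 0.19, adjusted p = 0.042). In all 3 the groups were apart, although the levels were low. Adora1 and Slc7a10 fall outside the rule for named genes, because of its minimum level, and were named after their values were seen.

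Cfd, Cyp2e1 and Ifi27l2a complete the 9. Cfd encodes adipsin, the complement protease secreted by adipocytes, and went from 75.3, 92.1 and 121 CPM to 16.2, 28.7 and 55.5 CPM (-1.51 ± 0.24, adjusted p = 0.0477). Cyp2e1, a cytochrome P450 that oxidises ethanol and ketones, went from 12.7, 20.6 and 35.1 CPM to 2.0, 5.47 and 8.31 CPM (-2.11 ± 0.35, adjusted p = 0.0478). Ifi27l2a, an interferon-induced gene, went from 15.2, 19.5 and 26.6 CPM to 8.23, 9.16 and 14.4 CPM (-0.97 ± 0.16, adjusted p = 0.0478). The KO-labelled libraries were all below the WT-labelled ones for each gene, and Ifi27l2a was the 1 called member of 15 interferon-induced genes, whose median change was 0.00. Beside Cidec, each of the 8 other falls kept its direction but lost its call in 9 to 12 of the 12 fits with a library left out, with a highest adjusted p between 0.117 and 0.157. In each fit that left out WT-labelled replicate 3, 4, 5 or 6 or KO-labelled replicate 2, 5 or 6, Cidec was the 1 fall still called.

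**Figure D2:**
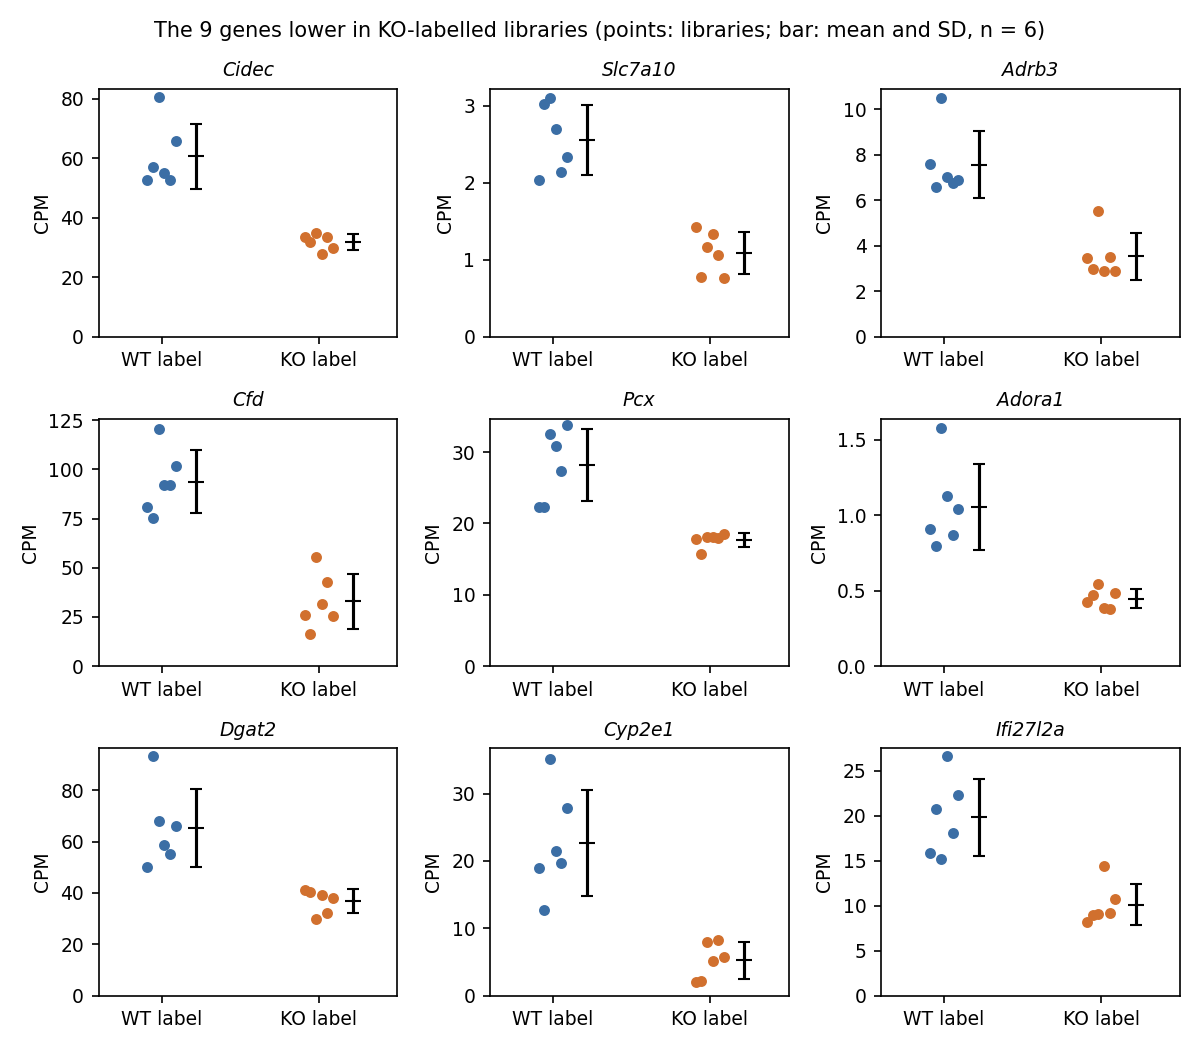
CPM of the 9 genes lower with the KO label in each of the 6 WT-labelled (blue) and 6 KO-labelled (orange) macrophage-labelled libraries, with the mean and SD beside the points. In each panel all 6 orange points lie below all 6 blue ones, as for Cidec with 27.7 to 35.0 against 52.6 to 80.7 CPM.

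Promoters of 3 of the falls are shown, Cidec as the most stable call and Pcx and Cyp2e1 as the falls with a match to a motif searched. The sequences are RefSeq promoters of GRCm38.p6, from 250 bases before to 50 bases after the gene's first listed start, 5′ to 3′ on the gene's own strand. Cidec is at chr6:113435711-113436010 on the minus strand, Pcx at chr19:4510222-4510521 on the plus strand and Cyp2e1 at chr7:140763569-140763868 on the plus strand. Capitals mark CACGTG in Pcx and TATAAA in Cyp2e1.
Cidec: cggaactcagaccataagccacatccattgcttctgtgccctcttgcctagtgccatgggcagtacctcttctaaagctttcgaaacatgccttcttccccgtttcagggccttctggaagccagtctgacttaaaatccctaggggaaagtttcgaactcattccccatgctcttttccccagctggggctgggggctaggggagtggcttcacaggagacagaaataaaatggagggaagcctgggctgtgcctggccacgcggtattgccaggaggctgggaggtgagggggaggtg
Pcx: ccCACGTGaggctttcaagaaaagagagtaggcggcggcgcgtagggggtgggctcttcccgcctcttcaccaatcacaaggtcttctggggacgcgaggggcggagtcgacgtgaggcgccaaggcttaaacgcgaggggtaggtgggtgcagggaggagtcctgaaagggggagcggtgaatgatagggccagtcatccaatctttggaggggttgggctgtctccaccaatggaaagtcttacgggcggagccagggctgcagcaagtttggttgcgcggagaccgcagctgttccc
Cyp2e1: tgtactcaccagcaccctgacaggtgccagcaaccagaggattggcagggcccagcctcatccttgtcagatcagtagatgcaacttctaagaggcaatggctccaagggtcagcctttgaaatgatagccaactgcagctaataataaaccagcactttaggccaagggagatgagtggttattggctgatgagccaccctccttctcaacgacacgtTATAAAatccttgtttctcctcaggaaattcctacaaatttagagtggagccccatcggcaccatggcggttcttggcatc

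Of the 14 called genes, 8 had a promoter in the RefSeq table, 6 of them falls. The motifs searched on both strands were the nuclear receptor element AGGTCA, the C/EBP site TTNNGCAA, the E-box CACGTG and the TATA box TATAAA. The nuclear receptor element was in none of the 6 falls and in 16.0% of 27025 promoters, and the C/EBP site in none of the 6 and in 10.8% of all. The E-box was in 1 of the 6 and 7.24% of all, and the TATA box in 1 of the 6 and 14.2% of all. A match is a description of letters, not a site in use.

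All 6 genes set down as defining for adipocytes were below 0, and 2 of the 6, Cidec and Cfd, passed the edgeR test. All 6 had an unadjusted p under 0.05. Over all 17067 genes tested, 9309 were below 0, 822 were lower at that unadjusted p and edgeR called 9 lower. DESeq2 called 115 of all genes and limma-voom 33. Of the 6 genes DESeq2 called 5, with Adipoq at an adjusted p of 0.0043, Car3 at 0.00217 and Lep at 0.026, and limma-voom called the same 2 as edgeR. The other members are known as a hormone of insulin sensitivity (Adipoq), a carbonic anhydrase abundant in fat (Car3), the satiety hormone leptin (Lep) and a lipid droplet coat (Plin1). Car3 ran from 418, 510 and 1045 CPM with the WT label to 212, 284 and 418 CPM with the KO label (-1.03 ± 0.22, adjusted p = 0.173). Adipoq ran from 22.6, 26.2 and 36.7 CPM to 13, 16.5 and 23.2 CPM (-0.68 ± 0.15, adjusted p = 0.171). Both pairs of groups overlapped narrowly. Lep differed by -0.48 ± 0.12 (adjusted p = 0.262) and Plin1 by -0.40 ± 0.14 (adjusted p = 0.459), with overlapping groups. The summed level of the 6 genes was 613 at the lowest, 736 at the median and 1321 CPM at the highest with the WT label, and 311, 393 and 558 CPM with the KO label. These sums did not overlap, and the highest was that of WT-labelled replicate 3. Among the 41 lists, sums were also apart for NRF2 targets, 2922 to 3077 CPM with the KO label against 3087 to 3611 CPM with the WT label. They were higher with the KO label and apart for Adipoq neighbours, 281 to 329 against 217 to 263 CPM, and for alternative macrophage activation.

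All of these levels were a small share of those in whole eWAT. There the 6 genes summed to 34385 to 39885 CPM with the WT label and to 27500 to 33283 CPM with the KO label. These eWAT sums did not overlap either, and edgeR called 3 of the 6 genes lower in eWAT. The mean level of the 9 falls in the WT-labelled libraries was 0.904% (Cyp2e1) to 4.40% (Ifi27l2a) of that in WT-labelled eWAT. Adipoq stood at 0.728% and Plin1 at 0.475%. Over the wider list of 20 adipocyte genes, 18 were below 0 with a median of -0.30, and the same 2 passed the edgeR test. DESeq2 called 9 of the 20 and limma-voom 3, and 11 were lower and 1 higher at an unadjusted p under 0.05. Several members were near or above their whole eWAT level, and their changes were small. Fabp4, a fatty acid carrier, was at a median of 8199 CPM with the WT label and 10922 CPM in WT-labelled eWAT, and changed by -0.11 ± 0.12 (adjusted p = 0.690). Cd36, a fatty acid receptor, was at 7528 against 5648 CPM and changed by 0.24 ± 0.09 (adjusted p = 0.485). Aqp7, a glycerol channel, was at 1158 against 172 CPM and changed by 0.11 ± 0.08 (adjusted p = 0.568). Pparg, the nuclear receptor of fat cell formation, was at 286 against 216 CPM and changed by -0.13 ± 0.12 (adjusted p = 0.622). Endothelial cells are known to express Fabp4, Cd36 and Aqp7.

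**Figure D3:**
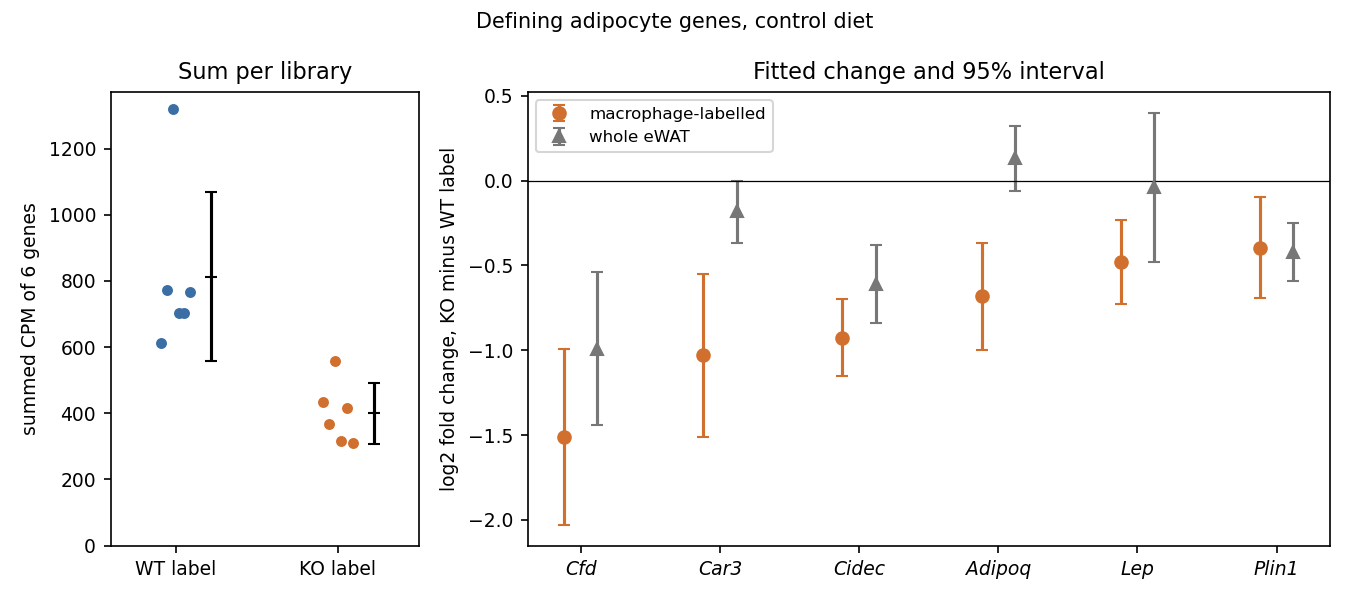
Left, summed CPM of the 6 defining adipocyte genes in each macrophage-labelled library on the control diet, with mean and SD. Right, log2 fold change (KO minus WT label) of each gene with its 95% interval in macrophage-labelled (circles, n = 6 and 6) and whole eWAT (triangles, n = 7 and 7) libraries. The left sums do not overlap, and on the right the macrophage-labelled estimate is below 0 for all 6 genes. In eWAT it is -0.99 for Cfd, -0.61 for Cidec, -0.42 for Plin1, -0.18 for Car3, -0.04 for Lep and 0.13 for Adipoq.

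The change followed how much more abundant a gene is in whole eWAT. The genes were sorted by the log2 ratio of their level in WT-labelled eWAT to that in the 6 ketogenic macrophage-labelled libraries, none of which is in the comparison. Of genes with a ratio below -2 (n = 1813) 54.5% were below 0 and the median change was -0.02. At ratios of 2 to 4 (n = 1176) the median was -0.07, at 4 to 6 (n = 232) -0.24, and at 6 and above (n = 60) -0.57 with 93.3% below 0. The share of genes with all KO-labelled libraries below all WT-labelled ones was 0.276% in the lowest class and 18.3% in the highest. The 9 falls lay in the last 2 classes, 4 and 5 of them, at ratios of 4.31 (Ifi27l2a) to 7.21 (Cyp2e1). Of the 5 rises 1 lay above 0 on this scale, Eif4a2 at 1.17. In whole eWAT itself, the same 60 genes had a median change of -0.10 and the 232 genes one of -0.06. With the GC offset the medians of the last 2 classes were -0.24 and -0.60, and with 1 library left out at a time that of the highest class ran from -0.66 to -0.53. The part of carried-over adipocyte RNA in the 9 falls was not tested.

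**Figure D4:**
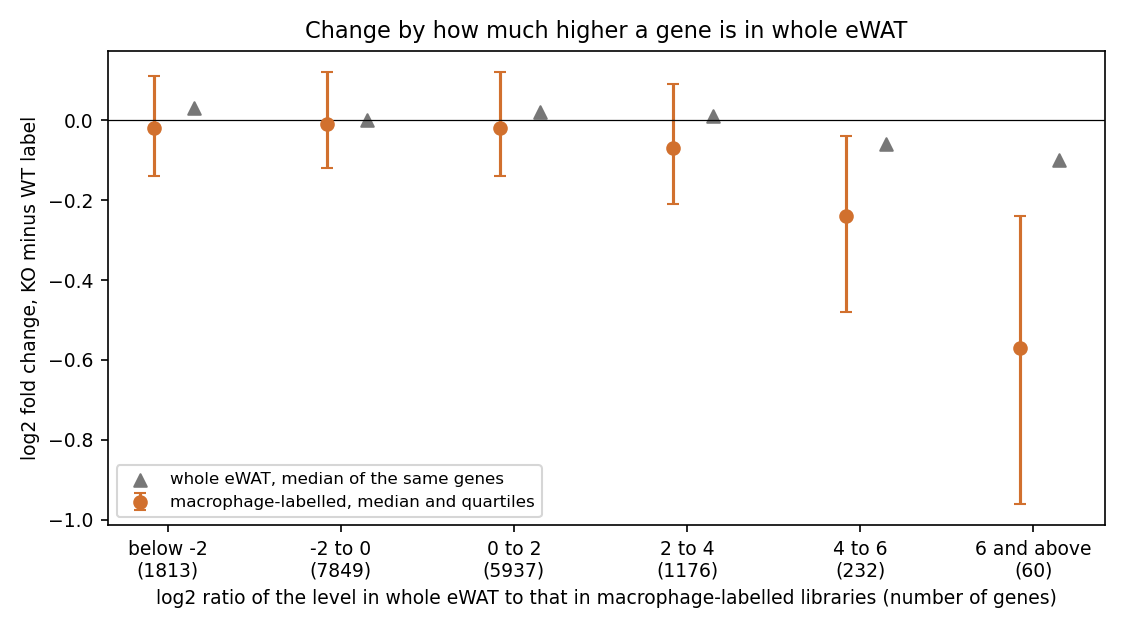
Median log2 fold change (KO minus WT label, circles, with quartiles) of macrophage-labelled libraries by the log2 ratio of a gene's level in WT-labelled whole eWAT to that in ketogenic macrophage-labelled libraries, with the number of genes in brackets. Triangles give the median of the same genes in whole eWAT. The circles lie near 0 up to a ratio of 2 and reach -0.57 at 6 and above, where the triangle is at -0.10.

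The 5 rises have no common role. Eif4a2, an RNA helicase of translation initiation (GRCm38 chromosome 16, 23107444 to 23114136, plus strand), lay at 146, 157 and 162 CPM with the WT label and 211, 218 and 239 CPM with the KO label. The groups were well apart (0.51 ± 0.05, adjusted p = 0.000684). It was called in each of the 12 fits with a library left out and in 7 of 11 other settings. It was not called with the GC offset (0.40, adjusted p = 0.0598), with that offset and the replicate block (adjusted p = 0.0953), with all 4 macrophage-labelled groups in one fit (adjusted p = 0.16) or against a fold of 1.2 (adjusted p = 0.0977). It neighbours Adipoq on that chromosome, and was the 1 called gene of 7 tested on the list of Adipoq neighbours. On that list 3 genes were higher and 1 lower at an unadjusted p under 0.05, and DESeq2 called 2 and limma-voom 1. In whole eWAT, edgeR called 3 of the 7 higher and 1 lower. Zfp949, a zinc finger gene on chromosome 9, went from 8.29, 13.2 and 14.1 CPM to 19.7, 20.6 and 21.7 CPM (0.73 ± 0.11, adjusted p = 0.0406). Its call ended in 11 of the 12 fits with a library left out (adjusted p up to 0.117), and it stayed without WT-labelled replicate 2, the lowest library (adjusted p = 0.000188).

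The other 3 rises are processed pseudogenes, copies of spliced transcripts inserted elsewhere, and were named after their values were seen. Morf4l1-ps1 (chromosome 16, 24529394 to 24530362) was at 0.245, 0.298 and 0.369 CPM with the WT label and 2.59, 2.99 and 3.34 CPM with the KO label (3.25 ± 0.14, adjusted p = 5.37e-08), and lost its call with all 4 macrophage-labelled groups in one fit (adjusted p = 0.054). Gm11868 (chromosome 4, 18844202 to 18845679) was at 0.824, 1.06 and 1.27 CPM and 3.80, 4.42 and 5.02 CPM (2.11 ± 0.13, adjusted p = 2.27e-06). Gm5530 on chromosome 1 rose from 0.222, 0.3 and 0.397 CPM to 0.588, 0.721 and 1.18 CPM (1.37 ± 0.23, adjusted p = 0.0478), and lost its call in 11 of the 12 fits with a library left out. Each gene kept the 2 labels apart without overlap, but reads of a processed pseudogene can come from its parent gene or from near copies, so their source is uncertain. Within 1000000 bases on either side of the 5 rises, 45 other genes were tested. None passed the edgeR test or had groups apart, DESeq2 called 1 and limma-voom called none. Of the 45, 11 had an unadjusted p under 0.05, a larger share than the 9.97% of all genes tested.

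Of the 5 rises, 4 were called in whole eWAT too. Of 16746 genes tested there, 2677 (16.0%) were called, 738 higher (4.41%) and 1939 lower (11.6%), and 5387 (32.2%) had an unadjusted p under 0.05. Of the 14 genes, 13 were tested in eWAT, all 13 had the same direction, and 9 were called, which is 64.3% of the 14 and 0.336% of the eWAT calls. In eWAT the change was 2.23 ± 0.12 for Gm11868, 1.41 ± 0.12 for Morf4l1-ps1, 1.13 ± 0.07 for Zfp949 and 0.66 ± 0.07 for Eif4a2. Among the falls, Ifi27l2a (-1.82 ± 0.27), Cfd (-0.99 ± 0.21), Pcx (-0.62 ± 0.13), Cidec (-0.61 ± 0.11) and Adrb3 (-0.46 ± 0.15) were called in eWAT too. Cyp2e1 (-0.13 ± 0.29, adjusted p = 0.796) and Slc7a10 (-0.18 ± 0.09, adjusted p = 0.195) were not, and neither were Adora1 (-0.55 ± 0.20) and Dgat2 (-0.47 ± 0.22).

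A test of the difference between the tissues called 36 of 19111 genes (0.188%), 21 higher (0.11%) and 15 lower (0.0785%), with 2567 (13.4%) at an unadjusted p under 0.05. Among the 14 it called Morf4l1-ps1, whose rise was larger by 1.83 ± 0.18 in the macrophage-labelled libraries (adjusted p = 1.71e-06). The falls of Slc7a10 (-0.93 ± 0.21, adjusted p = 0.0577) and Cyp2e1 (-1.98 ± 0.47, adjusted p = 0.0661) were larger there without passing. Adipoq, at 0.13 ± 0.09 in eWAT, differed between the tissues by -0.82 ± 0.18 (adjusted p = 0.048). The tissues were prepared with different kits, so tissue and kit cannot be told apart in the levels. This test treated all libraries as separate, although whether libraries of both tissues share animals is not known.

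The genes of macrophages showed no call in either direction. None of the 16 pan-macrophage genes passed the edgeR test, 9 were above 0 and the median change was 0.02. By unadjusted p under 0.05 there were 2, both higher, and DESeq2 and limma-voom called none. Over all 17067 genes tested, 7758 were above 0, 9309 were below 0 and 1701 (9.97%) had an unadjusted p under 0.05. Adgre1 ran from 10.6, 25.4 and 69.7 CPM with the WT label to 29.8, 35.7 and 46.3 CPM with the KO label, an interval of -0.50 to 1.03 on the log2 scale. Csf1r, the receptor macrophages need to survive, ran from 70.3, 82.9 and 120 CPM to 99.7, 117 and 125 CPM (0.37 ± 0.12, adjusted p = 0.458). In both genes the groups overlapped, and the WT-labelled libraries spread more widely. The median 95% interval of a pan-macrophage gene reached 0.40 on the log2 scale on either side of its estimate.

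Resident macrophage genes had 10 of 16 above 0, a median of 0.11 and no call by edgeR, DESeq2 or limma-voom, with 4 at an unadjusted p under 0.05. Mrc1, the mannose receptor, was at 9.0, 22.8 and 36.4 CPM with the WT label and 34.6, 38.1 and 51.2 CPM with the KO label (0.81 ± 0.29, adjusted p = 0.473). Its groups overlapped by a narrow margin. Of 14 lipid-associated macrophage genes 10 were below 0, with a median of -0.09, none called by edgeR, 4 at an unadjusted p under 0.05, and 1 each by DESeq2 and limma-voom. Among them Apoe, the lipoprotein of cholesterol export, had every KO-labelled library lower, 1313 to 1457 against 1466 to 1775 CPM, but missed the threshold (-0.26 ± 0.06, adjusted p = 0.188). MHC class II genes, which present antigen, had 7 of 9 above 0 and a median of 0.11, with no call by the 3 tools and none at an unadjusted p under 0.05. Of 11 genes of alternative macrophage activation 9 were above 0, with a median of 0.15. The 3 tools called none of the 11, and 2 had an unadjusted p under 0.05. Their summed level was 967.4 to 1261.6 CPM with the WT label and 1275.5 to 1335.8 CPM with the KO label. These sums were apart by a narrow margin, although each member's groups overlapped.

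Genes of inflammation held no call. Of 11 cytokine genes and 15 chemokine genes tested none was called by edgeR, DESeq2 or limma-voom, and 0 and 1 had an unadjusted p under 0.05. Tnf was at 17.7, 25.1 and 38.7 CPM with the WT label and 20.8, 25.3 and 29.9 CPM with the KO label, an interval of -0.41 to 0.27. The interval was -0.43 to 0.29 for Il1b, -0.26 to 0.61 for Il6 and -0.53 to 0.39 for Ccl2, which attracts monocytes. All 4 had overlapping groups. These cytokines were far higher than in whole eWAT, where Tnf had a median of 0.834 CPM and Il6 of 0.148 CPM with the WT label, beside the high immediate early genes given above.

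Of the 41 lists, 36 held no gene called by edgeR, 32 none called by DESeq2 and 33 none called by limma-voom. The lists with a DESeq2 call but no edgeR call were those of lipid-associated macrophages, LXR targets and cholesterol efflux, arrestins and thioredoxins, with 1 gene each, and NRF2 targets, with 2. Endothelial genes, the highest among the cell type lists relative to eWAT, had a median change of 0.06 and no call by any of the 3 tools. Ptprb, a phosphatase of blood vessels, had all KO-labelled libraries above the WT-labelled ones (0.31 ± 0.09, adjusted p = 0.379). All 18 cytosolic ribosomal protein genes were below 0, with a median of -0.11 and none called by the 3 tools or at an unadjusted p under 0.05. Of 18 oxidative phosphorylation genes 16 were below 0, with a median of -0.09 and again none called or under that unadjusted p. WT-labelled replicate 2 had the highest sum of both lists. Its ribosomal sum was 1865 CPM against 1265 to 1338 CPM in the other WT-labelled libraries and 1232 to 1371 CPM with the KO label. Its oxidative phosphorylation sum was 3443 CPM against 2724 to 2984 CPM and 2725 to 2794 CPM. The immediate early list had 12 of 15 below 0, a median of -0.10, none called by the 3 tools and 2 at an unadjusted p under 0.05. The median over all genes tested was -0.02, with 9309 of 17067 below 0.

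Before the ketogenic libraries are compared, their labels need a check. In 4 of the 6, the 4 called rises also called in eWAT lay nearer to the control-diet level of the other label, except Eif4a2 in WT-labelled replicate 2, at 178.0 CPM between the control-diet ranges. These genes were picked after their values were seen. For Gm11868 the WT-labelled replicates 1, 2 and 3 were at 4.49, 4.40 and 0.937 CPM, and the KO-labelled ones at 3.76, 1.26 and 0.981 CPM. For Morf4l1-ps1 they were at 2.64, 2.66 and 0.285 CPM, and at 3.27, 0.291 and 0.228 CPM. Eif4a2 and Zfp949 had their highest levels in the same 3 libraries, so that WT-labelled replicates 1 and 2 and KO-labelled replicates 2 and 3 went against their labels by these 4 genes. The falls did not all follow that order. Dgat2, Pcx and Slc7a10 were lower in WT-labelled replicates 1 and 2 and KO-labelled replicate 1 than in the rest. For Pcx and Slc7a10 the margin was very small, 30.8 against 30.9 CPM and 2.25 against 2.29 CPM between the nearest libraries. Dgat2 was at 21.3, 23.9 and 38.7 CPM with the WT label and 19.9, 33.6 and 36.2 CPM with the KO label. Cidec, Cfd, Cyp2e1, Adrb3, Adora1 and Ifi27l2a did not follow it. Cidec was at 55.3, 37.1 and 50.4 CPM with the WT label and 54.0, 50.5 and 76.3 CPM with the KO label, and Ifi27l2a at 19.5, 17.6 and 29.4 CPM and 23.3, 19.7 and 25.5 CPM. All 6 ketogenic libraries were above the control-diet KO-labelled range of both genes. The libraries were not regrouped.

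As labelled, edgeR called 0 of 17067 genes on the ketogenic diet (0.0%), with 520 (3.05%) at an unadjusted p under 0.05. Without a filter on low counts it called 26 higher and 77 lower, and with the replicate block 7 lower. The test of whether the genotype difference differed between the diets also called 0, of 18566 genes (0.0%). In it 726 (3.91%) had an unadjusted p under 0.05, and with the replicate block it called 2 higher and 8 lower. A fit without the 4 libraries that went against their labels left a single ketogenic library per label. That fit cannot show whether those labels mattered. No other tool was run on these 2 comparisons. Cidec differed by 0.34 ± 0.20 on the ketogenic diet and Cfd by 0.52 ± 0.25, both with an adjusted p of 1.00. Each diet is its own library set, so diet and set cannot be told apart.

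**Figure D5:**
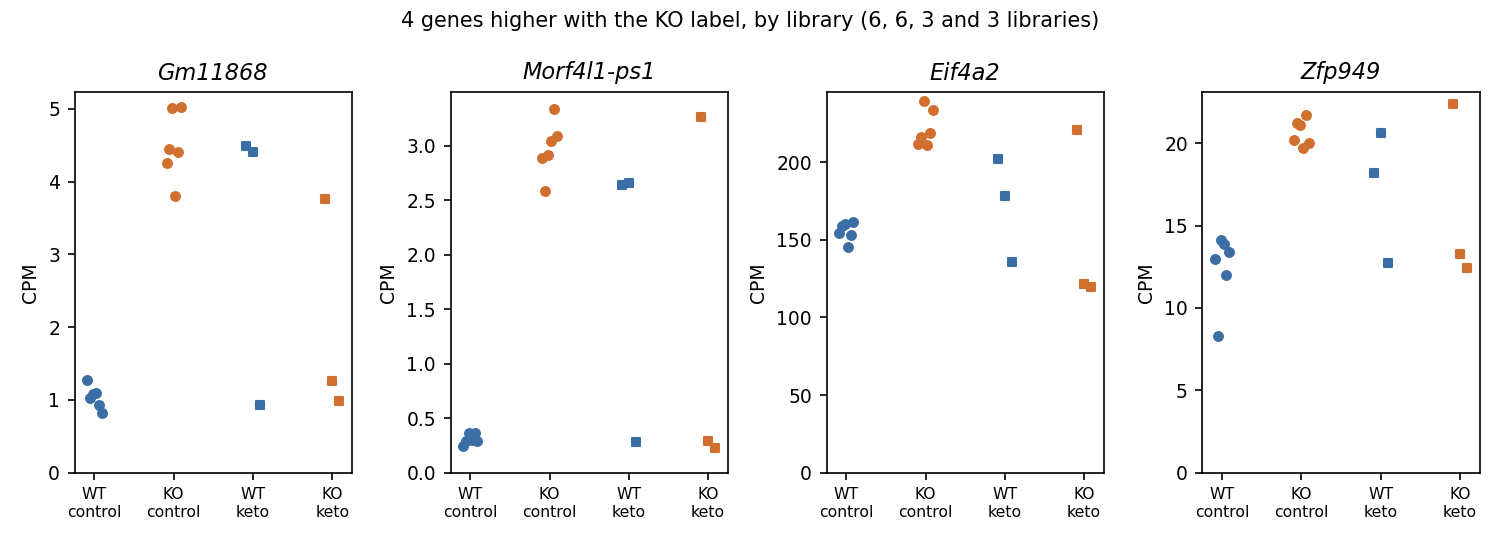
CPM of Gm11868, Morf4l1-ps1, Eif4a2 and Zfp949 in each macrophage-labelled library by genotype label (blue WT, orange KO) and diet (circles control, squares ketogenic). The control-diet labels do not overlap, while on the ketogenic diet 2 of 3 WT-labelled libraries are high and 2 of 3 KO-labelled ones are low.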

How the data were processed

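The authors deposited raw counts per gene for each library. Per the submitters' processing notes, reads were trimmed with Trim Galore 0.6.0 and counted with STAR 2.7.8a on mm10, and per the labels' protocols macrophage libraries came from 1 to 5 ng of total RNA with an unstranded kit and eWAT libraries from 500 ng with a stranded kit. No source used here names the annotation release. The unstranded column was used for macrophage-labelled libraries and the strand column with the larger total for eWAT, except that the test between tissues used the unstranded column throughout. Rows naming no gene, 23.4% to 32.9% of macrophage-labelled reads on the control diet, were left out. Symbols and positions came from GENCODE vM21 (GRCm38), which gave 55230 of 55471 genes a symbol.

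Fits used edgeR 4.0.16 under R 4.3.3 (filterByExpr, TMM, robust quasi-likelihood test, Benjamini-Hochberg adjustment over all genes tested, two-sided, calls at an adjusted p under 0.05). Each SE was taken from the log2 fold change and the root of F. Alternatives used DESeq2 1.42.0, limma 3.58.1 (voom with quality weights), other scalings and filters, a GC offset (lowess, span 0.3), the replicate number as a block and leaving out libraries. The ratio to eWAT used a pseudocount of 0.1 CPM. Named genes are Txnip, the 3 sort markers, the 6 defining adipocyte genes, the 10 largest rises and falls that were called, averaged 2 CPM or more and had an ordinary symbol, and up to 3 called members of each of 41 lists. The comparison and the lists were chosen with earlier results of these data known. The fit was tested on simulated data, replicates were checked for copies and none was found, and 16 eWAT libraries on the ketogenic diet were not used.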

Additional observations from a re-analysis of the deposited data

Results flagged for a closer look

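In 64 groups of 6 values checked for a library far from the other 5, 10 flags arose, and chance flags about 1 in 20 such groups. WT-labelled replicate 4 stood above the others for Itgam (17.5 CPM against 2.34 to 7.90) and for the summed pan-macrophage genes (2014.5 CPM against 706 to 1128). WT-labelled replicate 3 stood above the others for Car3 (1045.2 against 418 to 574 CPM), Adrb3 (10.5 against 6.59 to 7.61 CPM), the summed defining adipocyte genes (1320.6 against 613 to 773 CPM) and the summed T and NK cell genes (30.9 against 17.1 to 21.0 CPM). WT-labelled replicate 2 was lowest for Zfp949 (8.29 against 12 to 14.1 CPM). Among the KO-labelled libraries, replicate 3 was highest for Adrb3 (5.54 against 2.87 to 3.49 CPM), replicate 2 lowest for Pcx (15.7 against 17.8 to 18.5 CPM) and replicate 4 highest for Gm5530 (1.18 against 0.588 to 0.787 CPM).

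The genotype-label difference of 3 named genes differed between the tissues by the interaction test, macrophage-labelled minus eWAT on the log2 scale. It was 1.83 for Morf4l1-ps1 (adjusted p = 1.71e-06), -0.82 for Adipoq (adjusted p = 0.048) and -0.68 for Txnip (adjusted p = 0.048).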

How the results depend on the processing

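The call counts, 5 higher and 9 lower, became 31 and 84 with DESeq2, 9 and 24 with limma-voom, 4 and 5 with at least 1 CPM in at least 6 libraries, 1 and 8 with all 4 macrophage-labelled groups in one fit, 3 and 2 with the GC offset, 2 and 1 against a fold of 1.2, and 5 and 5 without WT-labelled replicates 2 and 3 together. They ran from 3 to 7 and from 1 to 11 with 1 library left out, and stayed within 1.5 times with DESeq2 size factors, upper-quartile scaling and no filter. The main fit did not pair libraries by replicate number. Yet 5 of 6 same-numbered pairs had a correlation above 0.1, and 3 of 6 libraries of either label were most like their own number. Whether the numbers mark pairs is not given in the labels. With the replicate block the counts were 3 and 12, with 9 of the main 14 genes still called. With the GC offset and the block they were 2 and 14, with 7 of the main 14 still called. Across genes, the change correlated with GC content (Spearman -0.35, 17046 genes, which are not independent replicates). Of the other comparisons, the diet interaction gave 2 and 8 with the block, 0 to 3 higher and 0 to 1 lower with 1 library left out. The ketogenic comparison gave 26 and 77 without a filter, 7 lower with the block, and 0 to 1 higher with 1 library left out. The eWAT counts were 422 and 796 and the tissue interaction 40 and 29 with the GC offset. Signs turned for Itgam with the block (0.0513), with GC offset and block (0.0325) and without WT-labelled replicate 4 (0.329, with -0.43 to 0.329 over the fits with 1 library left out), for Txnip without KO-labelled replicate 3 (-0.0172, with -0.0172 to 0.14 over those fits), and for Adgre1 without WT-labelled replicates 2 and 3 (-0.112), all uncalled. Of the other values of named genes, 352 kept direction and call, 164 lost a call and 5 gained 1. The cause of these moves was not tested. Sets added after seeing the data were the fit without WT-labelled replicates 2 and 3, the fits of the ketogenic and diet comparisons with a library left out, and the fit without 4 ketogenic libraries. Named genes under 2 CPM rest on few counts, and their changes are the least precise.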

Other observations

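Several genes lay just past the threshold, chosen here after their values were seen. Tshr, the thyrotropin receptor that adipocytes carry, was at 1.97 to 3.79 CPM with the WT label and 1.08 to 1.72 CPM with the KO label (-1.02 ± 0.18, adjusted p = 0.067). Slc6a13, a transporter of GABA and taurine, was at 1.71 to 3.43 against 0.447 to 1.22 CPM (-1.37 ± 0.25, adjusted p = 0.0943). In both genes the groups were apart, yet in whole eWAT the changes were -0.12 ± 0.06 and 0.00 ± 0.15. The interaction test between the tissues called both, at -0.91 ± 0.16 for Tshr (adjusted p = 0.0267) and -1.37 ± 0.29 for Slc6a13 (adjusted p = 0.0466). Aldh3b2, an aldehyde dehydrogenase, was at 0.238 to 0.837 against 0.0425 to 0.165 CPM (-2.40 ± 0.41, adjusted p = 0.0538), and was also lower in eWAT (-1.55 ± 0.20). Plin4, a lipid droplet coat, differed by -0.76 ± 0.15 with groups that overlapped (adjusted p = 0.11).

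Among other lists of cells, T and NK cell genes had 11 of 12 below 0 with a median of -0.34, and neutrophil and mast cell genes 8 of 11 with a median of -0.36. Neither list held a call by edgeR, DESeq2 or limma-voom, and 2 and 3 members had an unadjusted p under 0.05. Toll-like receptor and signalling genes had 10 of 13 above 0 with a median of 0.19, no call by these tools, and 4 members at an unadjusted p under 0.05, all higher. Of all 17067 genes tested, 7758 were above 0, 9309 were below 0 and 1701 (9.97%) had an unadjusted p under 0.05.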
